A study of Mus musculus with 8 samples.

Results

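The mouse mitochondrial genome is a small circular DNA with its own set of genes, and its transcripts were followed here in microglia, the resident macrophages of the brain. The members are all rows of the deposited table whose name starts with mt-, which are 37 of 56832 rows: 13 messenger RNAs, 2 ribosomal RNAs and 22 transfer RNAs. Microglia were sorted by fluorescence from brains of young adult male 5xFAD mice, a line that carries mutant human amyloid precursor protein and presenilin transgenes under a neuronal promoter and forms amyloid plaques. All 8 samples carry these transgenes, so there is no group without amyloid. The 4 ethanol samples came from mice injected intraperitoneally with 20% ethanol at 3 g/kg on 5 days per week for 4 weeks, the 4 saline samples from mice injected with saline on the same schedule, and a withdrawal of 2 weeks followed in both groups. The question is whether repeated ethanol changes what microglia transcribe. Libraries are numbered 1 to 4 within each group after their titles. Since no label ties a library to a single mouse, p-values measure only how far these libraries spread, which may be technical in part. Values with ± are means and SDs over the 4 libraries of a group (n = 4) unless stated otherwise.

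The libraries held 14271351 to 17231301 assigned reads each. Summed markers of microglia, such as the purinergic receptor gene P2ry12 and Tmem119, made up 4.86% to 5.39% of normalized counts in the 8 libraries. All 10 of these markers were detected. Genes whose mean reached 10 normalized counts numbered 14428, and limma called 0 of them different between the groups at a Benjamini-Hochberg adjusted p under 0.05, a share of 0.0%. At an unadjusted p under 0.05 it gave 524 genes, and the count models called 0 genes as well, with edgeR at 495, voom at 546 and DESeq2, run without the filter, at 777 for that level. In bulk samples, fewer cells of a type and less RNA per cell cannot be told apart.

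Both strands of mitochondrial DNA are transcribed into long RNAs that span many genes. The transfer RNAs lie between most of the other genes, and enzymes that cut at their ends release the messenger and ribosomal RNAs, an arrangement known as tRNA punctuation. The messenger RNAs encode core subunits of respiratory complexes I, III and IV and of the ATP synthase, which together use the energy of electron transfer to make ATP. The ribosomal RNAs build the mitochondrial ribosome that translates these messengers, and the transfer RNAs serve it. The cDNA kit named in the labels, SMARTer Ultra Low Input, primes on poly(A) tails, which most mitochondrial messengers carry and which mature transfer RNAs do not carry as a stable tail. The counts of transfer RNA rows are therefore counts of reads assigned to those rows and not levels of mature transfer RNA. How well the kit captures each messenger and ribosomal RNA was not tested. Levels and ratios between rows therefore compare assigned reads, which may differ from amounts of RNA.

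Reads were spread very unevenly over the mitochondrial genes. Of the 37 rows, 17 reached a mean of 10 normalized counts and entered the test: 8 messengers, both ribosomal RNAs and 7 transfer RNAs. The rows for mt-Co2, mt-Atp8, mt-Atp6, mt-Co3 and mt-Nd4l had means of 1.84 to 9.45 normalized counts, and together they held 177 reads in all 8 libraries. These genes encode subunits 2 and 3 of cytochrome c oxidase, both mitochondrial subunits of the ATP synthase and a small subunit of complex I. Among them mt-Nd4l, with 25 reads in all, had 0.925, 1.93, 1.02 and 1.82 normalized counts in saline 1 to 4 and 2.17, 2.01, 10.03 and 5.14 in ethanol 1 to 4. In normalized counts all ethanol libraries lay above all saline libraries in this row, beside 2.32% of all tested genes without overlap in either direction. In whole reads saline 2 and 4 were level with ethanol 1 and 2, so only the size factors set these libraries apart. At 1 to 10 reads per library the row did not enter the test. In gene order, 8 rows in succession from mt-Ts1 to mt-Tg held 158 reads in all. The gene just before this run, mt-Co1, had a mean of 40237 normalized counts, and the gene just after it, mt-Nd3, had 704.

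**Figure D1:**
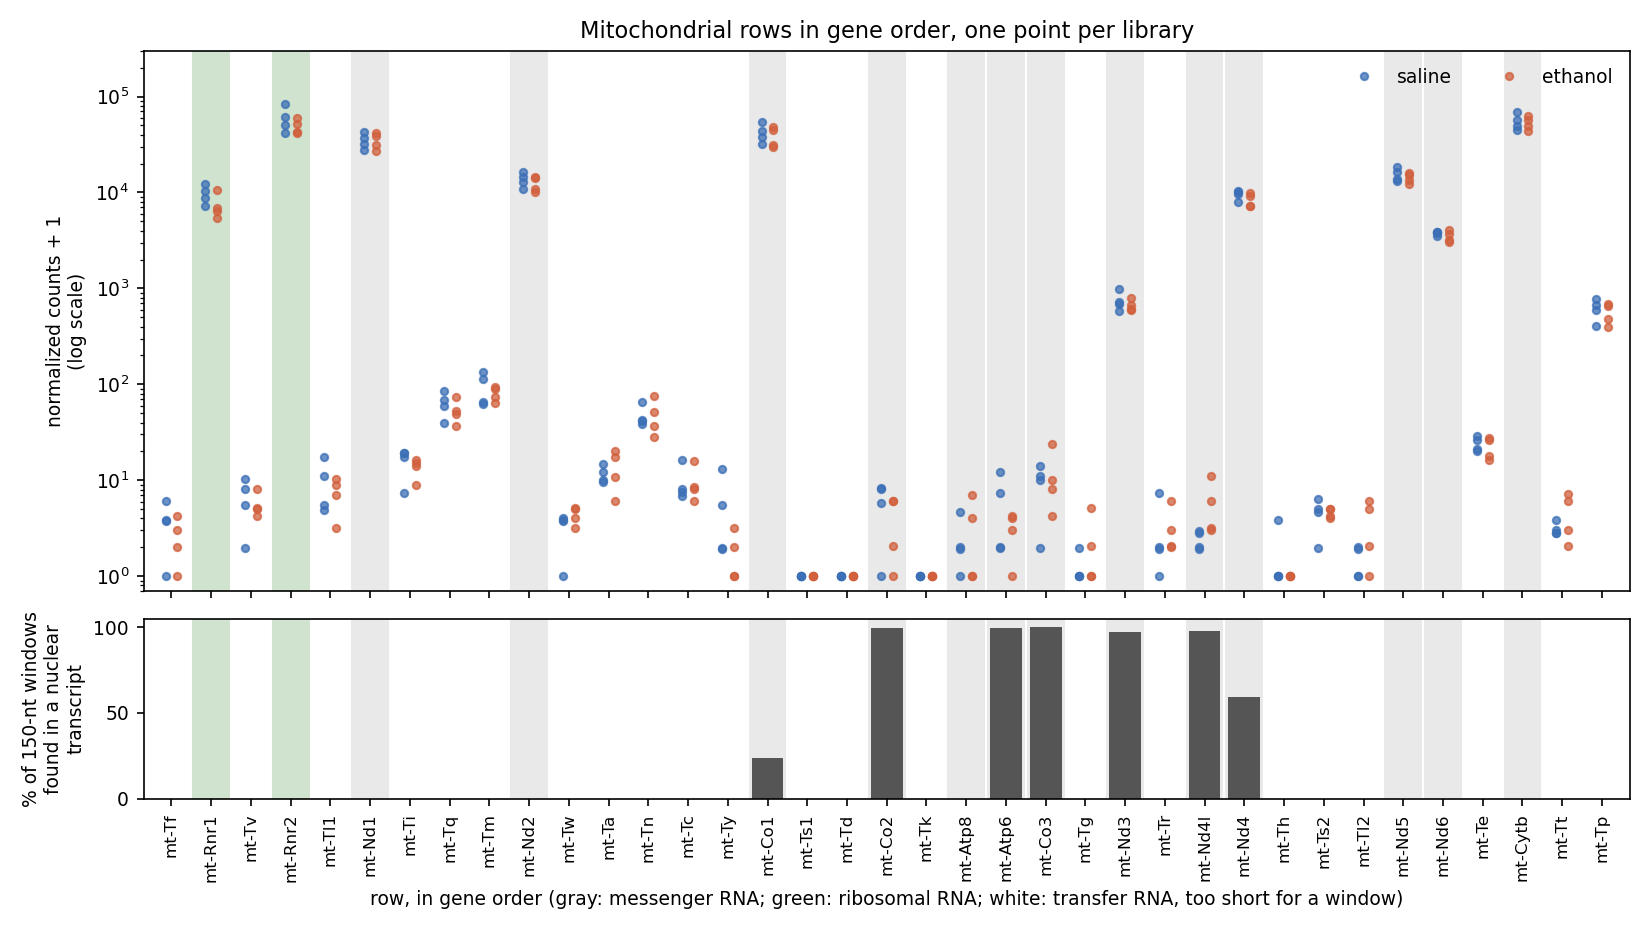
The upper panel shows normalized counts plus 1 on a log scale for each of the 37 mitochondrial rows in gene order, with 1 point per library, saline in blue and ethanol in orange. The lower panel shows the percentage of 150-nt windows of each messenger or ribosomal RNA that also occur in a nuclear transcript, and the rows with bars close to 100% are mostly those with few reads.

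Of the 5 messenger rows with few reads, 4 have near-identical copies among nuclear transcripts. Windows of 150 nt, the read length in the labels, were taken from each mitochondrial transcript in the GENCODE M21 set and searched on both strands in all nuclear transcripts of that set. For mt-Co2, mt-Atp6, mt-Co3 and mt-Nd4l, 98.0% to 99.8% of windows occurred unchanged in nuclear pseudogenes (mt-Co2 in Gm28661 and Gm13341, mt-Atp6 in Gm10925, mt-Co3 in Gm28437 and mt-Nd4l in Gm10222). For mt-Nd3 97.0% of windows occurred in Gm28438, for mt-Nd4 59.2% in Gm28439 and for mt-Co1 23.6% in Gm29216. No window of mt-Rnr1, mt-Rnr2, mt-Nd1, mt-Nd2, mt-Nd5, mt-Nd6, mt-Cytb or mt-Atp8 was found in a nuclear transcript. In mt-Co1 the shared windows covered bases 1067 to 1545, the end of the gene, and in mt-Nd4 they covered bases 1 to 876 of 1378, its start. The 7 pseudogenes from Gm29216 to Gm28439 are consecutive genes on the same nuclear chromosome in that annotation, which was made on GRCm38, an older build than the GRCm39 of the table. Their order there is that of their mitochondrial counterparts. Whether the DNA between them is shared as well was not tested.

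A read that matches both places equally cannot be placed by its own sequence alone. No source used here says how the authors counted such reads. The nuclear copies had few reads as well: Gm28437, the copy of mt-Co3, had a mean of 36.6 normalized counts, and the 8 pseudogenes that share windows with a mitochondrial gene summed to 139. The counts of mt-Co2, mt-Co3, mt-Atp6, mt-Nd3, mt-Nd4l and part of those of mt-Nd4 and mt-Co1 are thus uncertain as measures of these transcripts. The mt-Atp8 row lies inside the run and overlaps mt-Atp6, and its low count had no counterpart in this search. The nuclear genome itself was not searched.

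The start of mt-Nd3 shows how small the difference between the copies can be. Its first 150 bases are printed with the base that differs from Gm28438 in capitals. Counted from 1 at the start of mt-Nd3, with its base first and that of Gm28438 last, the substitution is T3C.

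mt-Nd3 bases 1 to 150: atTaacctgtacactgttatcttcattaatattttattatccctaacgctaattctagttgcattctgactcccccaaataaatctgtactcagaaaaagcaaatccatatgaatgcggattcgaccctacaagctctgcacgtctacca

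The 5 transfer RNA rows of highest mean are printed next, from the same transcript set, because they carry most of the reads of their class. Capitals mark the anticodon, the 3 bases that pair with the codon.

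mt-Tp, proline: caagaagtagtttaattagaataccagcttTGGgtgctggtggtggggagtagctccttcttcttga

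mt-Tm, methionine: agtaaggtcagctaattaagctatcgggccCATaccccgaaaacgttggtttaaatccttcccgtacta

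mt-Tq, glutamine: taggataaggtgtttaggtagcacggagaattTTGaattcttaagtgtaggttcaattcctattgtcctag

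mt-Tn, asparagine: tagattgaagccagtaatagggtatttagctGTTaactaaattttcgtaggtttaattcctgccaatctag

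mt-Te, glutamate: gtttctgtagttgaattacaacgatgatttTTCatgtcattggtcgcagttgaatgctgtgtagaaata

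Assigned reads per length differed widely between transcripts that come from shared precursors. Among the 10 tested messenger and ribosomal RNAs, per kilobase of gene, mt-Cytb, the cytochrome b of complex III, had the highest mean at 47228 ± 7664 normalized counts (SD over 8 libraries). It was followed by mt-Nd1 at 36453 ± 6495, mt-Rnr2 at 34192 ± 8754 and mt-Co1 at 26043 ± 5631. The next group was mt-Nd2 at 12473 ± 2115, mt-Rnr1 at 8904 ± 2490, mt-Nd5 at 8128 ± 1113, mt-Nd6 at 7004 ± 696 and mt-Nd4 at 6488 ± 932, and mt-Nd3 came last of the 10 at 2022 ± 374. The 5 untested messengers lay far below, at 5.09 to 12.1 normalized counts per kilobase. Only the steps from mt-Co1 to mt-Nd2 and from mt-Nd4 to mt-Nd3 were larger than the whole spread of the 8 libraries. Neighbours in this order otherwise overlapped between libraries, although within a library the order held in 8 of 8 for most pairs, the exceptions being mt-Nd1 over mt-Rnr2 in 7 and mt-Rnr1 over mt-Nd5 in 6. When only windows with no match in a nuclear transcript were taken as length, the order changed in several places. The count stayed that of the whole row, so genes with shared windows are raised too far if reads from these were counted. Whether they were is not known. On that scale mt-Nd4 had 17810 normalized counts per 1000 windows and passed mt-Nd2 at 14563, mt-Rnr1 at 10550, mt-Nd6 at 9825 and mt-Nd5 at 8851. Counting windows in place of bases also raises short genes more than long ones. It gave 370 windows for the 519 bases of mt-Nd6 and 1675 for the 1824 of mt-Nd5. Neither gene shares a window, so mt-Nd6 passed mt-Nd5 through this change of length alone. The value of mt-Nd3 was 117260, above all others, but it rests on the 6 of its 199 windows that are not shared. By the same measure mt-Co1, at 37746, and mt-Rnr2, at 37748, were level. Of the untested messengers, mt-Co3 had 9453 on that scale, mt-Co2 1275, mt-Atp6 1155, mt-Nd4l 1043 and mt-Atp8 33.5. All of these but mt-Atp8 rest on very few windows, since 98.0% to 99.8% of theirs are shared. How far these messengers lay below the others thus depends on the measure of length.

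Among the tested members, the largest fold change between the groups was in a ribosomal RNA. The 12S RNA of the small ribosomal subunit, mt-Rnr1, had 8856, 7180, 12171 and 10412 normalized counts in saline libraries 1 to 4 and 6455, 6916, 5426 and 10611 in ethanol libraries 1 to 4. Ethanol 1, 2 and 3 lay below every saline library, while ethanol 4 lay above saline 4, so the groups overlapped. The log2 fold change of mt-Rnr1 on the log2(value + 1) scale was -0.41 ± 0.17 (SE), or 0.752-fold (95% interval 0.587 to 0.963). Its unadjusted p in limma was 0.0264, and its adjusted p of 0.997 did not pass. Without ethanol 3, saline 3, saline 4, ethanol 1 or ethanol 2 the unadjusted limma p was 0.109, 0.104, 0.0652, 0.0644 and 0.0532. Without saline 1, saline 2 or ethanol 4 it was 0.0319, 0.00453 and 0.000671. Adjusted p-values in these fits were at least 0.98. A robust variance model gave an unadjusted p of 0.151 and DESeq2 0.150.

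The 16S RNA of the large subunit, mt-Rnr2, had 50130, 41925, 82699 and 61470 normalized counts in saline 1 to 4 and 42735, 42167, 51992 and 59619 in ethanol 1 to 4. Saline 3 was the highest library by far and saline 2 the lowest, with all ethanol libraries between them. The fold of mt-Rnr2 was 0.850 (95% interval 0.679 to 1.07), with an unadjusted limma p of 0.147 and an adjusted p of 0.997. Without saline 3 its log2 fold change was -0.06 in place of -0.23. The ratio of mt-Rnr2 to mt-Rnr1 was 5.66, 5.84, 6.79 and 5.90 in saline 1 to 4 and 6.62, 6.10, 9.58 and 5.62 in ethanol 1 to 4. Ethanol 3 had the highest ratio and ethanol 4 the lowest. On the log2 scale the mean ratio was 2.59 ± 0.12 in saline and 2.77 ± 0.34 in ethanol (exact permutation p = 0.457, adjusted over 5 ratios 0.679).

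Messengers of complex I, the NADH dehydrogenase through which electrons enter the chain, did not differ past the threshold. The means of mt-Nd1, a membrane subunit of this complex, were nearly equal, with 34902 ± 6680 for saline against 34869 ± 6746 for ethanol, a fold of 0.998 (95% interval 0.826 to 1.21). Its values were 31721, 27598, 42923 and 37366 in saline 1 to 4 and 27342, 31214, 39046 and 41873 in ethanol 1 to 4, so the groups overlapped almost wholly. For mt-Nd2 the values were 12813, 10803, 16186 and 14495 in saline 1 to 4 and 10049, 10810, 13999 and 14416 in ethanol 1 to 4. The fold of mt-Nd2 was 0.906 (0.758 to 1.08), and the groups overlapped over most of their range.

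The complex I messenger with the smallest p was mt-Nd4, whose start has a nuclear copy. Its values were 9997, 7937, 10346 and 9696 in saline 1 to 4 and 7219, 7212, 9833 and 9284 in ethanol 1 to 4. Ethanol 1 and 2 lay below all saline libraries and ethanol 3 and 4 within the saline range. The fold of mt-Nd4 was 0.879 (0.754 to 1.02; unadjusted limma p 0.0935, adjusted p 0.997). The values of mt-Nd5 were 13944, 13318, 18556 and 16186 in saline 1 to 4 and 12237, 13365, 15118 and 15883 in ethanol 1 to 4, a fold of 0.916 (0.793 to 1.06). For mt-Nd3, of which nearly all windows are shared with a nuclear copy, the values were 718, 585, 974 and 687 in saline 1 to 4 and 593, 605, 673 and 794 in ethanol 1 to 4, with a fold of 0.909 (0.731 to 1.13).

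The messenger mt-Nd6 is encoded on the opposite strand from the other 12 messengers and is the only one transcribed from there. It varied least among the 17 tested members, with a coefficient of variation of 9.93% over the 8 libraries. Its values were 3796, 3545, 3901 and 3907 in saline 1 to 4 and 3029, 3174, 4020 and 3709 in ethanol 1 to 4. Ethanol 1 and 2 were below all saline libraries and ethanol 3 above them. The fold of mt-Nd6 was 0.914 (0.802 to 1.04; unadjusted limma p 0.166, adjusted p 0.997). The preparation does not mark strand, so reads from mt-Nd6 and from the opposite strand of the same DNA cannot be told apart.

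Cytochrome b of complex III and subunit 1 of cytochrome c oxidase, the last complex of the electron transport chain, had overlapping groups as well. The values of mt-Cytb were 49667, 44604, 68221 and 56500 in saline 1 to 4 and 43974, 48772, 57351 and 63137 in ethanol 1 to 4, a fold of 0.977 (0.824 to 1.16). The values of mt-Co1 were 38106, 32295, 53673 and 43599 in saline 1 to 4 and 29688, 31494, 47882 and 45160 in ethanol 1 to 4, a fold of 0.915 (0.735 to 1.14). In both genes saline 3 was the highest library and ethanol 1 the lowest.

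**Figure D2:**
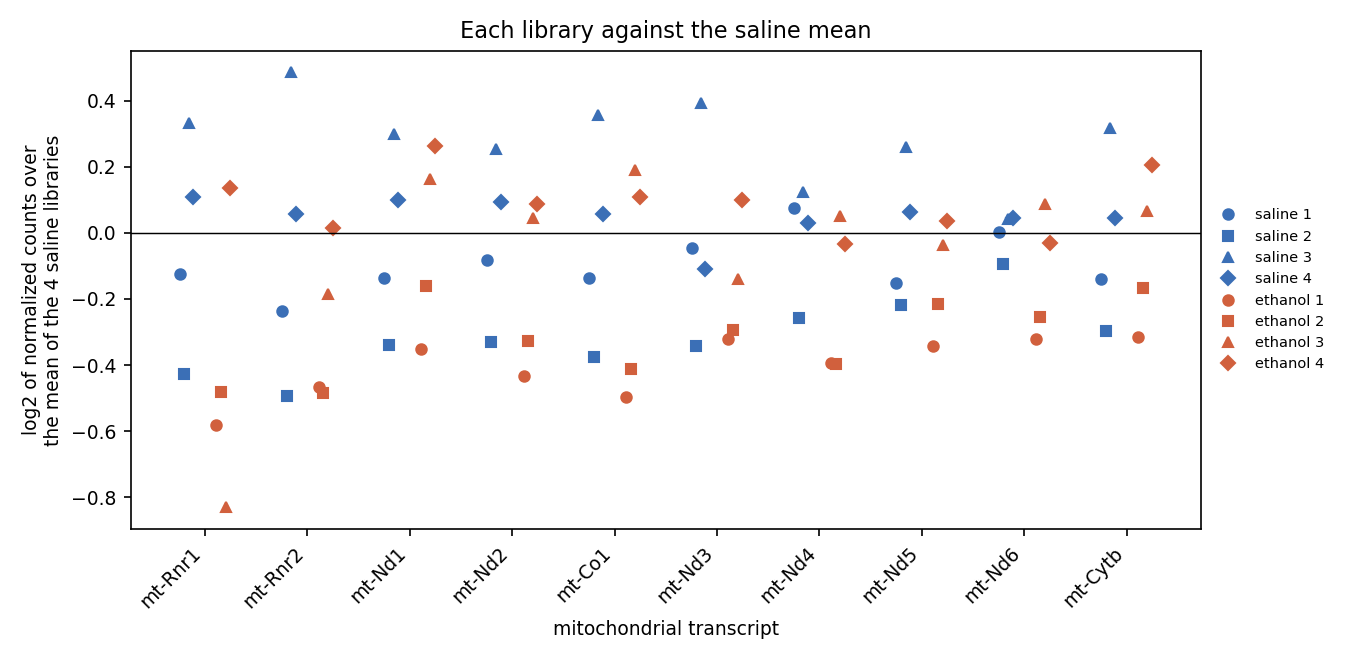
For the 10 tested messenger and ribosomal RNAs, the plot shows the log2 of each library's normalized counts over the mean of the 4 saline libraries, with saline in blue, ethanol in orange and the library number as the marker shape. Triangles and diamonds (libraries 3 and 4) of both colours lie mostly above circles and squares (libraries 1 and 2), and ethanol 3 is the lowest library of mt-Rnr1.

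Transfer RNA rows were scarce, and a single row dominated them. The proline row mt-Tp held 67.7% of the normalized counts of the class, with 597, 408, 781 and 667 in saline 1 to 4 and 397, 473, 658 and 683 in ethanol 1 to 4. Its fold was 0.903 (95% interval 0.675 to 1.21), and the lowest library, ethanol 1, was just under saline 2. The methionine row mt-Tm had 62.0, 63.7, 134 and 114 normalized counts in saline 1 to 4 and 63.0, 73.2, 89.2 and 92.6 in ethanol 1 to 4, so the ethanol libraries fell inside the saline range. The glutamine row mt-Tq had 58.3, 38.6, 84.6 and 67.2 in saline 1 to 4 and 47.8, 36.1, 52.1 and 72.0 in ethanol 1 to 4. The asparagine row mt-Tn had 37.9, 41.5, 64.2 and 40.9 in saline 1 to 4 and 35.8, 27.1, 74.2 and 50.4 in ethanol 1 to 4. The glutamate row mt-Te had 20.3, 19.3, 25.5 and 28.2 in saline 1 to 4 and 15.2, 17.0, 25.1 and 26.8 in ethanol 1 to 4. In these 3 rows too the groups overlapped. The 95% intervals of the fold were 0.575 to 1.39 for mt-Tm, 0.514 to 1.39 for mt-Tq, 0.558 to 1.69 for mt-Tn and 0.460 to 1.73 for mt-Te, wide on both sides of 1.

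The remaining transfer RNA rows were near the detection limit. Of the 22 rows, 2 more reached a mean of 10, mt-Ti at 13.8 and mt-Ta at 11.6, and 12 rows had means of 0.362 to 8.71 normalized counts. No read was assigned to mt-Ts1, mt-Td or mt-Tk in any library. These 3 rows lie in the run of 8 rows with few reads, and 0 of 126538234 reads allows a share of up to 2.37e-06%, a limit that covers counting error only. The 8 transfer RNA genes on the strand of mt-Nd6, mt-Tp among them, held 85.0% of the class's counts. As the preparation does not mark strand, these reads may come from transcripts of either strand. With 59 to 75 nt these genes are shorter than a read, so a read that covers them can also overlap a neighbouring gene.

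Of the 17 tested members, 0 passed the adjusted threshold in limma, against 0.0% of all tested genes. At an unadjusted p under 0.05 there was 1 member, mt-Rnr1, against 3.63% of all tested genes (1.93% lower and 1.7% higher in ethanol). On the recovered reads, edgeR called 0 and voom called 0, each with mt-Rnr1 as the 1 member at an unadjusted p under 0.05, and DESeq2 called 0 with 0 at that level. Over all genes in these models, 3.43%, 3.78% and 2.90% were at that level. The groups did not overlap in 0 of the 17 tested members, against 2.32% of all tested genes (1.12% with ethanol above and 1.2% with ethanol below). The log2 fold change was below 0 in 16 of the 17, all but mt-Ta, against 51.2% of all tested genes (15 of the 17 with quantile normalization, 14 in edgeR and 12 with library name numbers as a factor), and the members share precursors and libraries, so these signs are not independent of each other. The median was -0.13 for the 8 messengers, -0.32 for the 2 ribosomal RNAs and -0.16 for the 7 transfer RNAs, beside -0.01 for all tested genes. Saline 3 weighed on these medians: without it the messenger median was -0.02, and 11 of the 17 members were below 0.

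**Figure D3:**
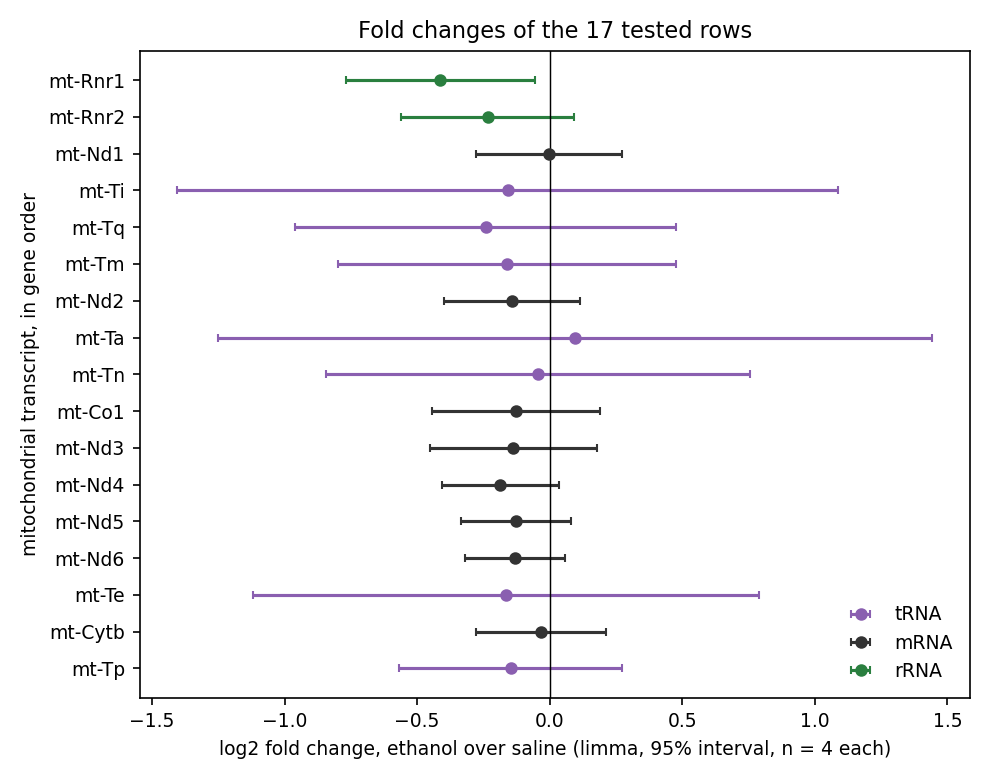
Log2 fold changes of ethanol over saline are shown for the 17 tested mitochondrial rows in gene order, with 95% intervals from limma (4 libraries per group), coloured by RNA class. All points but mt-Ta lie below 0 (14 of 17 in edgeR), and all intervals but that of mt-Rnr1 include 0.

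As shares of all normalized counts, the classes overlapped between the groups. Ribosomal RNA made up 0.383%, 0.316%, 0.593% and 0.459% in saline 1 to 4 and 0.317%, 0.314%, 0.368% and 0.442% in ethanol 1 to 4. The means were 0.438 ± 0.119% and 0.360 ± 0.0598% (two-sided exact permutation p = 0.257, adjusted over 4 shares 0.686). Messengers ran from 0.905% to 1.34% in saline and from 0.865% to 1.22% in ethanol (exact permutation p = 0.686). Transfer RNA rows ran from 0.00401% to 0.00735% and from 0.00393% to 0.00632% (exact permutation p = 0.600). All mitochondrial rows together ran from 1.22% to 1.94% in saline and from 1.19% to 1.67% in ethanol (exact permutation p = 0.543). With 4 against 4 libraries the smallest p that this test can give is 0.0286.

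Ratios within a library, which no scaling between libraries can change, did not differ past the threshold either. The log2 ratio of ribosomal RNA to messenger RNA was -1.37 ± 0.15 in saline and -1.55 ± 0.12 in ethanol (exact permutation p = 0.114, adjusted over 5 ratios 0.571). Ethanol 3 had the lowest ratio at -1.71 and saline 3 the highest at -1.18. The log2 ratio of mt-Nd6 to the other messengers was -5.48 ± 0.21 and -5.53 ± 0.11 (exact permutation p = 0.686). The ratio of transfer RNA rows to messengers (exact permutation p = 0.371) and that of complex IV to complex I messengers (exact permutation p = 0.543) had overlapping groups too, and the complex IV sum rests almost entirely on mt-Co1.

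**Figure D4:**
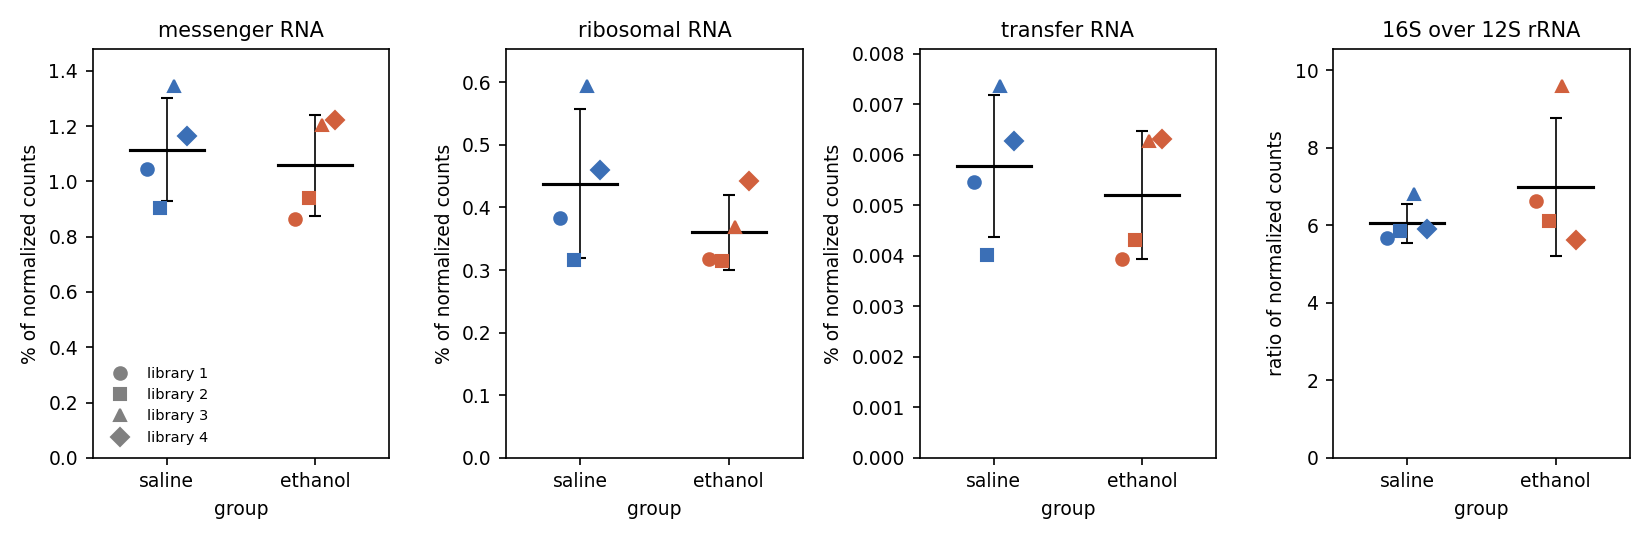
Shares of normalized counts in percent for messenger, ribosomal and transfer RNA rows, and the ratio of 16S to 12S ribosomal RNA, are shown for each library (marker shape gives the library number), with horizontal lines at the group means and error bars of 1 SD (n = 4). In the 3 class panels libraries 3 and 4 of either group lie above libraries 1 and 2, except that ribosomal RNA in ethanol 3 (0.368%) lies below saline 1 (0.383%).

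Libraries with the numbers 3 and 4 had more mitochondrial RNA than those with the numbers 1 and 2 in either group. Messengers averaged 1.23% of normalized counts in the 4 libraries numbered 3 and 4 and 0.938% in the 4 numbered 1 and 2. The labels do not say what the numbers stand for, and this division was known from earlier results of these data, so the differences between its sides carry no test. Of the 17 tested members 16 had a higher mean in libraries 3 and 4, all but mt-Ti, and the median log2 difference was 0.45, beside -0.01 for all tested genes. Saline 3 was the highest library for 13 of the 17 members, and ethanol 1 was the lowest for 8. The median within-group SD of the 9 members with a mean of at least 1000 was 0.26 on the log2 scale, which is above the 0.13 of all 3450 tested genes at that level and above their 90th percentile of 0.21.

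Within libraries 1 and 2 the log2 difference of ethanol and saline was -0.26 for mt-Rnr1, -0.11 for mt-Rnr2, -0.30 for mt-Nd4 and -0.24 for mt-Nd6. Within libraries 3 and 4 it was -0.57, -0.36, -0.07 and -0.02 for the same genes. The ribosomal RNAs thus had their larger difference in libraries 3 and 4, and mt-Nd4 and mt-Nd6 in libraries 1 and 2, and whether these differences differ was not tested. With the division as a term in limma, 5 of the 17 members had an unadjusted p under 0.05, among them mt-Rnr1 at 0.0122 and mt-Rnr2 at 0.0122, beside 4.73% of all tested genes, and the smallest adjusted p among the members was 0.991. Because the division was known from these data and the members differ along it, the term lowers their spread by choice. These unadjusted p-values are therefore descriptive only. With the numbers in the library names as a factor instead, 0 of the 17 members had an unadjusted p under 0.05 in limma, beside 5.34% of all tested genes, and mt-Rnr1 was at -0.30 on the log2 scale with an unadjusted p of 0.0687. Saline 3 and ethanol 3 carry 163 in the name, saline 1, saline 4 and ethanol 4 carry 164, and saline 2, ethanol 1 and ethanol 2 carry 165. The libraries with 165 had the lowest shares of all mitochondrial rows, at 1.22%, 1.19% and 1.26%. Name number and treatment are thus unbalanced and cannot be fully told apart.

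Markers of other material varied over the same libraries. Nuclear-retained RNAs (5 listed genes, 4 with a mean of at least 10), such as Malat1, made up 0.260% to 0.680% of normalized counts in saline and 0.465% to 1.11% in ethanol, with ethanol 3, the library of lowest mt-Rnr1, at the top. Immediate early genes, known to be induced by cell isolation (9 of 10 with a mean of at least 10), made up 0.0573% to 0.105% and 0.0610% to 0.0756%, with saline 3, the library of most mitochondrial RNA, at the top. Neuron markers (5 of 9 with a mean of at least 10) stayed at or under 0.00391% in each library, with a mean of 0.00269% in libraries 3 and 4 and 0.00117% in libraries 1 and 2. Border macrophage markers (8 of 8) went the other way, with 0.00461% and 0.0102%. No marker of these 4 lists was at 0 in all libraries, and their part in the mitochondrial differences was not tested.

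Nuclear genes that make and handle mitochondrial RNA were read from 9 lists with 143 genes, of which 136 were tested. In limma 0 passed the adjusted threshold, against 0.0% of all tested genes, and 4 were higher and 3 lower at an unadjusted p under 0.05, which is 5.15% of them beside 3.63% of all tested genes. The counts at that unadjusted level were 11 in edgeR, 7 in voom and 12 in DESeq2, with 0 past the adjusted threshold in each. Beside them stood 3.43%, 3.78% and 2.90% of all genes in the same models, DESeq2 without the filter. The median log2 fold change over the 136 genes was -0.00, with 67 positive and 69 negative.

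Factors of mitochondrial transcription and replication had 0 of 19 tested members past either level. Polrmt, the mitochondrial RNA polymerase, stood at 519 ± 85.5 normalized counts in saline against 495 ± 124 in ethanol libraries, a fold of 0.937 (95% interval 0.717 to 1.23). Tfam, which packages mitochondrial DNA and helps start its transcription, had 327 ± 41.4 and 324 ± 23.7, a fold of 0.994 (0.801 to 1.23). Tfb2m, the second initiation factor, had 251 ± 37.6 and 193 ± 54.9, a fold of 0.753 (0.548 to 1.03; unadjusted limma p 0.0757, adjusted p 0.997). The other named genes of this list were Polg, the mitochondrial DNA polymerase, with a fold of 1.09, Mterf4 with 1.14 and the single-strand binding protein gene Ssbp1 with 0.924. Among the 4 genes that cut at transfer RNA ends, folds were 0.933 for Elac2, which cuts the 3′ end, 0.856 for Prorp, the nuclease of the 5′ cut, and 1.04 and 1.07 for its partners Trmt10c and Hsd17b10. The log2 fold change of Elac2 was 0.41 within libraries 1 and 2 and -0.61 within libraries 3 and 4, and this difference was not tested.

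Genes of messenger stability, polyadenylation and decay had 10 of 20 members on either side of 0 and 0 at an unadjusted p under 0.05. Lrpprc, which with Slirp protects mitochondrial messengers, had 1279 ± 219 and 1389 ± 165 normalized counts, a fold of 1.09 (0.914 to 1.30), and Slirp a fold of 1.13 (0.811 to 1.58). Mtpap, the mitochondrial poly(A) polymerase, had a fold of 0.987 (0.805 to 1.21), and Pnpt1, a nuclease of RNA decay, had 1.09 (0.837 to 1.41). The deadenylase gene Pde12 had a fold of 1.21 (0.962 to 1.53), Fastkd5 1.24, Ptcd1 0.917 and Rexo2 0.938.

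Transfer RNA maturation held 2 of 22 members at an unadjusted p under 0.05 in limma, beside 3.63% of all tested genes, and 0 past the adjusted threshold. Both were higher in ethanol, beside 1.7% of all tested genes in that direction. They were Gatb, part of the enzyme that makes glutaminyl transfer RNA, at 545 ± 72.7 and 690 ± 73.8 normalized counts (unadjusted limma p 0.0157, adjusted p 0.997), and Cdk5rap1, a modifier of transfer RNA bases, at 159 ± 48.5 and 245 ± 68.2 (unadjusted limma p 0.0237, adjusted p 0.997). Gtpbp3 and Trmt2b, other modifiers, had folds of 0.867 and 0.888. Of the 19 aminoacyl-tRNA synthetase genes, which load amino acids, 2 were higher at that unadjusted level, beside the same 1.7% of all tested genes. Among these 2 was Mars2 with a fold of 1.43 (1.01 to 2.03). The lower synthetase genes named were Lars2 with 0.904 (0.817 to 1.00) and Iars2 with 0.819 (0.671 to 1.00).

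Ribosomal RNA modification and ribosome assembly had 0 of 19 members at an unadjusted p under 0.05, with folds of 1.15 for Mtg2, 1.09 for Eral1, which binds the 12S RNA, 0.879 for Nsun4 and 0.943 for Mtg1. Among 13 translation factors, Gfm1, an elongation factor, had 357 ± 42.9 and 273 ± 30.9 normalized counts with no overlap between the groups, a fold of 0.765 (0.612 to 0.957; unadjusted limma p 0.0217, adjusted p 0.997). Groups did not overlap in 2.32% of all tested genes. Tufm, another elongation factor, had a fold of 1.19 (0.939 to 1.51), Mtrfr 1.22 and Mtrf1 0.812.

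Of 9 tested regulators of mitochondrial biogenesis, 2 were lower at an unadjusted p under 0.05 in limma and 0 higher, beside 1.93% and 1.7% of all tested genes. Yy1, a zinc finger transcription factor, had 977 ± 143 and 738 ± 56.1 normalized counts with no overlap (2.32% of all tested genes), a fold of 0.761 (0.638 to 0.907; unadjusted limma p 0.00462, adjusted p 0.997). Esrra, a nuclear receptor that drives genes of oxidative metabolism, had 590 ± 42.4 and 490 ± 35.4, a fold of 0.832 (0.699 to 0.990; unadjusted limma p 0.0395, adjusted p 0.997). Ppargc1b, a coactivator of such genes, had 39.2 ± 18.8 and 56.0 ± 14.9, a fold of 1.54 (0.827 to 2.88), and Myc had 1.21 (0.935 to 1.57). Ppargc1a did not reach a mean of 10. Mitophagy and dynamics genes had 0 of 11 members at that level, with folds of 0.899 for the kinase gene Pink1, 1.14 for the fusion gene Opa1 and 0.946 for Bnip3l.

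**Figure D5:**
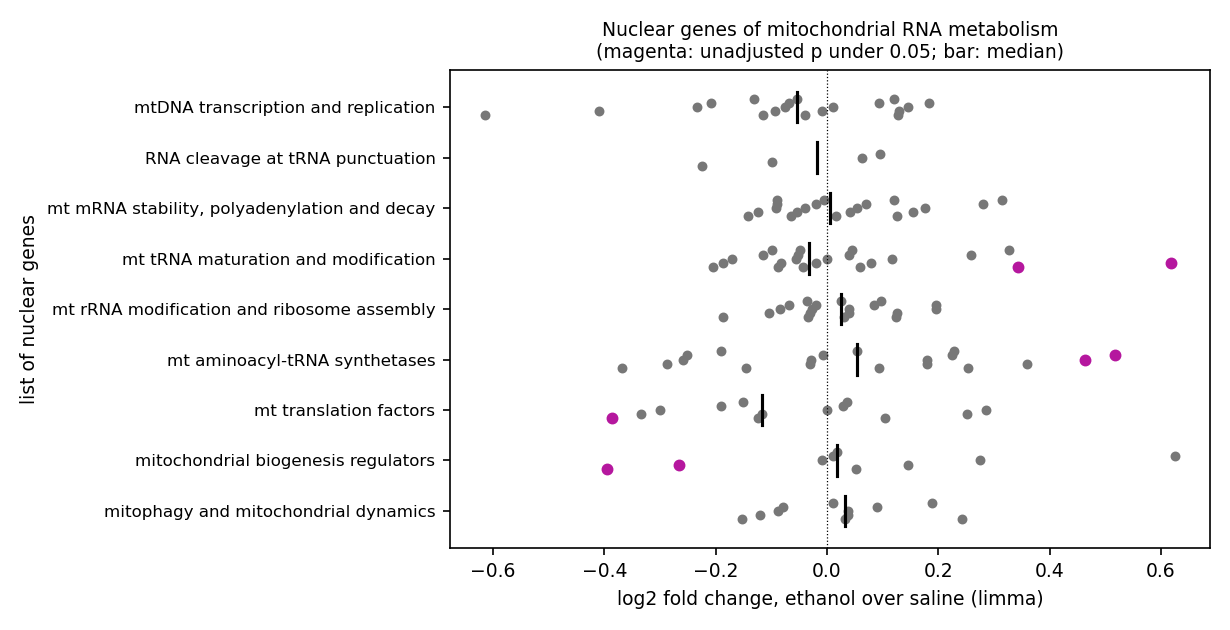
Log2 fold changes of ethanol over saline are shown for the tested genes of 9 lists of nuclear genes, with magenta points for an unadjusted limma p under 0.05 and a bar at each list's median. The list medians lie between -0.12 and 0.05, and 7 of 136 genes are magenta.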

How the data were processed

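The authors deposited normalized signal for each gene in a single table, named as DESeq2 output: read counts over a size factor for the library. The submitters' processing notes list, without roles, the build GRCm39, Salmon 1.5.2, featureCounts 2.0.1 (Subread), STAR 2.7.9a, bcl2fastq 2.19.1, R 4.2.2 and DESeq2. The annotation and the handling of reads with several matches are not stated there. Per the labels' protocols, amplification started from 500 pg of RNA and reads were paired ends of 150 nt.

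All deposited values were whole multiples of 1 step per library (100% within 1e-06), so whole reads were recovered. Samples were grouped by title and columns matched by library name. The test was limma 3.58.1 (R 4.3.3) on log2(value + 1), with an intensity trend, a mean of at least 10, 2 sides and Benjamini-Hochberg adjustment over 14428 genes at 0.05. It was tested on simulated data in which each gene was drawn independently. This does not show which fold the test could detect in members that share precursors and libraries. Shares and ratios were compared by exact permutation. Nuclear copies were searched in GENCODE M21 transcripts (GRCm38) by exact 150-nt windows, and BLAST 2.17.0 aligned the copies. Count models on the recovered reads were edgeR 4.0.16, DESeq2 1.42.0 and voom. Without molecular identifiers, limits from counts cover counting error only.

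The members and gene lists were chosen with earlier results of these data known. Values were given for the tested messengers and ribosomal RNAs and the 5 highest transfer RNA rows. From each nuclear list the text names, per direction, the 2 genes with the lowest unadjusted p, and always Polrmt, Tfam, Tfb2m, Lrpprc, Slirp, Elac2, Mtpap, Pnpt1 and Ppargc1b. Some genes that this rule names are not reported here. Marker sums of monocytes, lymphocytes, neutrophils, astrocytes, oligodendrocytes, endothelial cells and erythrocytes each stayed under 0.1% in every library.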

Additional observations from a re-analysis of the deposited data

Results flagged for a closer look

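In 132 groups of 4 libraries (each named gene, class share and ratio in each treatment), 5 had a library whose gap to the nearest other exceeded Dixon's 95% critical value as a share of the group's range. Chance gives about 1 such group in 20. The asparagine row mt-Tn stood at 64.2 normalized counts in saline 3, where the other saline libraries had 37.9 to 41.5. Gatb stood at 653 in saline 3, against 505 to 516 in the others. Pnpt1 was at 326 in saline 4, against 477 to 484, and Trmt10c at 677 in saline 4, against 582 to 591. The mitophagy receptor gene Bnip3l was at 2544 in ethanol 3, against 2913 to 2987.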

How the results depend on the processing

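No member, no listed nuclear gene and no gene of the table was called under any of 25 other settings: pseudocounts of 0.5 and 5, no filter or a mean of at least 50, quantile normalization, scaling to nuclear-encoded reads, robust variance, array quality weights, 3 added terms, libraries 1 and 2 or 3 and 4 alone, each library left out, edgeR with 2 scalings, voom and DESeq2. At an unadjusted p under 0.05 these gave 0 to 6 members, beside 2.90% to 5.34% of all tested genes. Same-numbered libraries had correlations of 0.01 to 0.08 of their deviations from the group means, and not every library correlated best with its own number, so the numbers were not taken as pairs. With the replicate block 0 genes were called. At an unadjusted p under 0.05 the block gave 6 members in place of 1, beside 4.47% of all tested genes. The difference of the messenger share was -0.06 percentage points as without the block. The block contains the division of libraries 1 and 2 from 3 and 4, so its count of members is descriptive only. Signs turned for some genes. The log2 fold change of mt-Nd1 was 0.10 with library name numbers as a factor, 0.0139 within libraries 3 and 4, 0.00365 in edgeR and 0.00693 in voom. That of mt-Tn was 0.0368 with the library name number, 0.25 within libraries 3 and 4, 0.0304 in edgeR, 0.0255 in edgeR with DESeq2 size factors and 0.0260 in DESeq2. With quantile normalization mt-Cytb was at 0.00671 and Tfam at 0.00662. With the library name number mt-Cytb was at 0.0435, mt-Tp at 0.00527 and Tfam at 1.33e-05, and voom gave 0.00315 for Tfam. Within libraries 1 and 2, mt-Tm was at 0.11, Elac2 at 0.41, Hsd17b10 at -0.0867, Polrmt at 0.10 and Prorp at 0.25. Within libraries 3 and 4, Lrpprc was at -0.0635, Mtpap at 0.26, Nsun4 at 0.18, Opa1 at -0.00551, Tfam at 0.0854, Trmt10c at -0.0420 and the log2 ratio of mt-Nd6 to the other messengers differed by 0.0359. With each library left out in turn, log2 fold changes ran from -0.11 to 0.11 for mt-Nd1, -0.33 to 0.0372 for mt-Tm, -0.29 to 0.18 for mt-Tn, -0.24 to 0.00187 for mt-Nd3, -0.13 to 0.0777 for mt-Cytb, -0.24 to 0.0677 for Elac2, -0.0458 to 0.19 for Hsd17b10, -0.20 to 0.0828 for Mtg1, -0.13 to 0.0723 for Mtpap, -0.0198 to 0.27 for Pnpt1, -0.18 to 0.11 for Polrmt, -0.37 to 0.0477 for Prorp and -0.0838 to 0.0625 for Tfam. The ratio of mt-Nd6 to the other messengers ran from -0.15 to 0.0137, positive without saline 2. The messenger share difference ran from -0.126 to 0.0197 percentage points, positive without saline 3 and without ethanol 1. The cause of these turns was not tested. Depth limits the 20 rows with a mean under 10, which were not tested.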
